A study of Rattus norvegicus with 16 samples.

Results

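Septins are the family described here, in rat hepatoma cells in which Pdrg1 had been silenced. The members were 10 genes, Sept2, Sept4 to Sept12, taken as every probe that carries one of these gene names. They have 11 probes among the 30367 probes and 26269 gene names of the array, since Sept9 has 2 probes. Another 4 probes of 3 gene names of the same form were on the array and were not members. The family was chosen by the log2 difference of Sept7 from CN-10 on these same arrays, so the values of Sept7 are a description without a test, and the other 9 genes were tested.

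H35 is a rat hepatoma cell line, and Pdrg1 encodes a small prefoldin-like protein. Gene expression was measured on 16 one-colour arrays, 4 biological replicates in each of 4 groups, on total RNA. CN-10 is a stable clone carrying the negative control shRNA plasmid, 4-18 is a stable clone carrying the shRNA4 plasmid, and 3-44 is a stable clone carrying the shRNA3 plasmid. shRNA3T is an enriched pool of cells transfected transiently with the shRNA3 plasmid. Cells of every group, CN-10 included, had been transfected with a plasmid and enriched with 1.8 mg/ml G418, and the clones went through a further selection with 4 mg/ml. Each stable group is 1 clone, and shRNA3T is a pool compared with a clone, so that plasmid, cloning and selection cannot be told apart there. The p-values below measure the spread between replicates of these clones and this pool.

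Septins are GTP-binding cytoskeletal proteins that assemble into hetero-oligomers, and these join end to end into filaments, bundles and rings. They fall into subgroups named after SEPT2, SEPT3, SEPT6 and SEPT7, and a filament takes its subunits from different subgroups, so that members of one subgroup can often replace each other. SEPT7 is the single member of its subgroup and is a core subunit of the common complexes. Septin filaments lie beneath the plasma membrane and at the cleavage furrow, where they act as scaffolds and diffusion barriers during cytokinesis.

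The array reads each septin through 60-base probes, and the first 30 bases of those on which the results turn are shown so that the measured stretch can be found. Only this part is printed because a probe may lie in an untranslated region, and exons and untranslated regions were not assigned here. Positions are those of the array files, in the rat build rn4. Both Sept9 probes are shown because 1 of them passed the test in 4-18 and the other did not.
Sept7, probe A_64_P107454, chr8:24987230-24987289: ccaatacgccagcttggacatcagtgtttg
Sept4, probe A_64_P116132, chr10:75880819-75880878: gccttatatccctgctgacttctcagagac
Sept2, probe A_64_P147069, chr9:92789107-92789166: cccttcagttttactgcttttgctaacaaa
Sept9, probe A_64_P085405, chr10:107479272-107479331: cctgtgccccagaacccatcaagaatacct
Sept9, probe A_44_P393282, chr10:107479782-107479841: tcatcaggatgactttgtgcctctgtaacc
Sept10, probe A_64_P141090, chrUn:15328964-15329023: cagcacaagagaacgtgagactgtgtattt

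All 11 probes lie on the plus strand except that of Sept11, and the 2 Sept9 probes start 510 bases apart. The longest run of bases shared between probes of different septin genes or of Sept9 was 12, and none of the 11 shared a run of 20 bases with another probe of the array. The accession of each of the 11 probes was found in the RefSeq gene table (assembly GRCr8), which names the genes Septin2 to Septin12. Near-identical genomic copies of Septin7 are also known to RefSeq as pseudogenes, and their part in the signal was not tested.

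Levels are given as normalized log2 intensity, where 1 unit is a 2-fold difference after an offset of 50 was added. The offset makes differences of dim probes between groups smaller than those of the signal itself. The level of one probe cannot be set against that of another. On this scale the weakest signal well above background lay between 5.87 and 6.81 on the 16 arrays, and both ends of that range were 4-18 arrays. Of the 42877 gene spots, 53.1% to 74.3% were well above background per array. The 4-18 arrays were the dimmest (53.1% to 64.1%). Each group was hybridized on a slide of its own, and an effect of the slide cannot be told apart from one of the group. The 4-18 slide was also scanned on another day than the other slides, which cannot be told apart from the group in any comparison with 4-18. The Pdrg1 probe ranged from 13.41 to 13.88 in the control clone, from 11.57 to 13.34 in 4-18, from 11.89 to 12.95 in 3-44 and from 12.39 to 12.97 in the pool. All 12 silenced arrays were below CN-10, with differences of -0.77, -0.99 and -0.85 (SE 0.34, limma adjusted p = 0.129, 0.105 and 0.143, two-sided exact permutation p = 0.0286 in each comparison, the smallest that 4 arrays against 4 allow). Of 8 hepatocyte markers, 6 (Afp, Alb, Fgb, Serpina1, Tf and Ttr) were well above background on all 16 arrays and Apoh on none. Markers of other cell types were mixed. Of the stellate and fibroblast markers Pdgfrb was well above background on 1 array, Acta2 and Des on 15 each and Col1a1 on 16. Of the immune markers Ptprc was well above background on 0 arrays, Cd3e on 1 and Cd68 on 15, and of the endothelial ones Pecam1 on 0, Kdr on 6 and Cdh5 on 16. Of the biliary markers Epcam was so on 0, Krt7 on 2 and Krt19 on 4, all of them CN-10, and of the neuronal ones Snap25 on 0, Syp on 2 and Tubb3 on 12.

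Sept7 was higher in all 3 silenced groups than in the control clone. The CN-10 arrays read 10.06, 11.11 and 11.32, and replicate 3, which carried an outlier flag and was set aside, would have read 10.89. The 4-18 arrays read 12.00, 11.95, 12.49 and 12.45. The 3-44 arrays read 11.52, 12.36, 12.52 and 12.18, and the shRNA3T arrays 11.95, 12.47, 12.31 and 12.21. Every silenced array was therefore above every CN-10 array, the set-aside one included, and the 3 silenced groups overlapped one another. The first replicate was the lowest of its group in CN-10, 3-44 and shRNA3T.

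**Figure D1:**
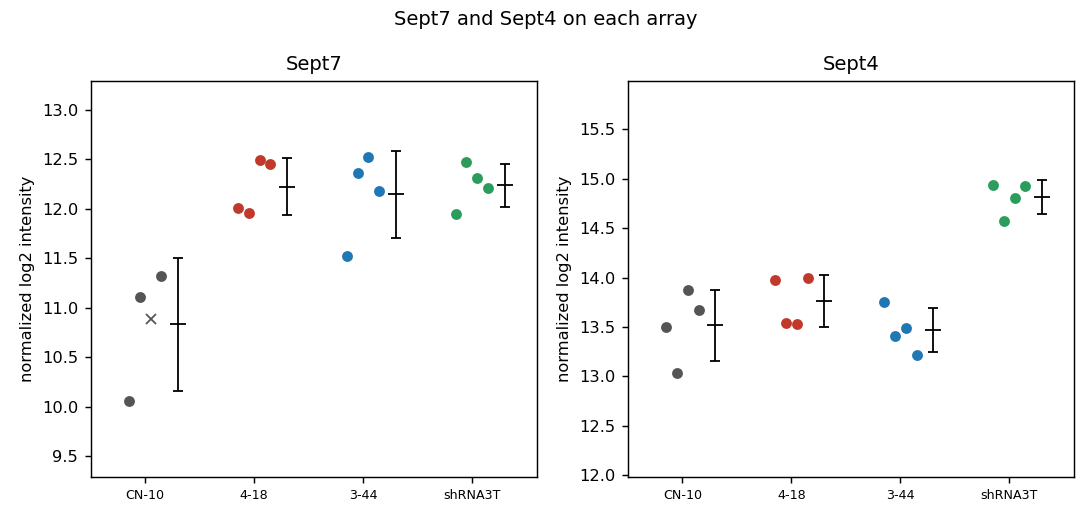
Normalized log2 intensity of Sept7 and Sept4 on each array, by group, with replicates 1 to 4 from left to right. Circles are arrays, the cross is the CN-10 array set aside for its outlier flag, and the bar is the mean with its SD. The 12 silenced arrays lie above CN-10 for Sept7, while for Sept4 the shRNA3T arrays (14.57 to 14.94) lie above those of the other groups.

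The mean level of Sept7 was 10.83 ± 0.67 in CN-10 (SD, n = 3), 12.14 ± 0.44 in 3-44, 12.22 ± 0.29 in 4-18 and 12.23 ± 0.22 in shRNA3T (SD, n = 4 each). Against CN-10 the log2 difference was 1.39 in 4-18, 1.31 in 3-44 and 1.40 in shRNA3T (SE 0.29 each), or 2.63-fold, 2.49-fold and 2.65-fold higher. These 3 comparisons share the CN-10 arrays. The silenced groups differed from each other by 0.08 (4-18 minus 3-44), -0.01 (4-18 minus shRNA3T) and -0.09 (3-44 minus shRNA3T), less than the SD within each of them. This likeness depended on the processing. Over the alternative analyses these differences ran from -0.53 to 0.21, from -0.77 to 0.08 and from -0.24 to 0.12. Non-overlapping groups of arrays were found for 22.8%, 15.9% and 21.6% of all probes in the 3 comparisons, and no weight is placed on that of Sept7, which was chosen for it.

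The size of the Sept7 difference rested in part on 1 control array and on the scaling. Without the first CN-10 replicate it was 1.01 in 4-18, 0.93 in 3-44 and 1.02 in shRNA3T. Without scaling between arrays it was 0.75 in 4-18, where the median of all probes was 0.15. Relative to the median of all probes in each comparison, Sept7 was then 0.60 higher in 4-18, 1.31 in 3-44 and 1.59 in shRNA3T. With the 75th percentile of the normexp intensities as the scale, the median of all probes in 4-18 was 0.86, and relative to it Sept7 was 0.53 higher.

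Among the other 9 septin genes, 4 had a probe that passed an adjusted p of 0.05 in a comparison with CN-10: Sept4, Sept2, Sept9 and Sept10, each in 1 silenced group only. In 4-18, 1 of the 10 probes rose and 1 fell, where 23.6% of all probes passed (11.6% higher, 12% lower). In 3-44, 1 fell, where 7.85% of all probes passed (3.48% higher, 4.37% lower). In shRNA3T, 1 rose, where 11.9% passed (5% higher, 6.85% lower). Between silenced groups, 2 of the 10 passed in 4-18 against 3-44, 2 in 4-18 against shRNA3T and 1 in 3-44 against shRNA3T, beside 22.1%, 20.1% and 10.6% of all probes. With a change of at least 2-fold required as well, the counts against CN-10 in 4-18, 3-44 and shRNA3T were 0, 0 and 1 of 10, beside 5.91%, 1.4% and 2.29% of all probes. The median log2 difference of the 10 probes was 0.09 in 4-18, -0.09 in 3-44 and 0.02 in shRNA3T, and that of all probes 0.01, -0.00 and -0.01. These shares and medians do not set the other septins apart from the array as a whole.

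**Figure D2:**
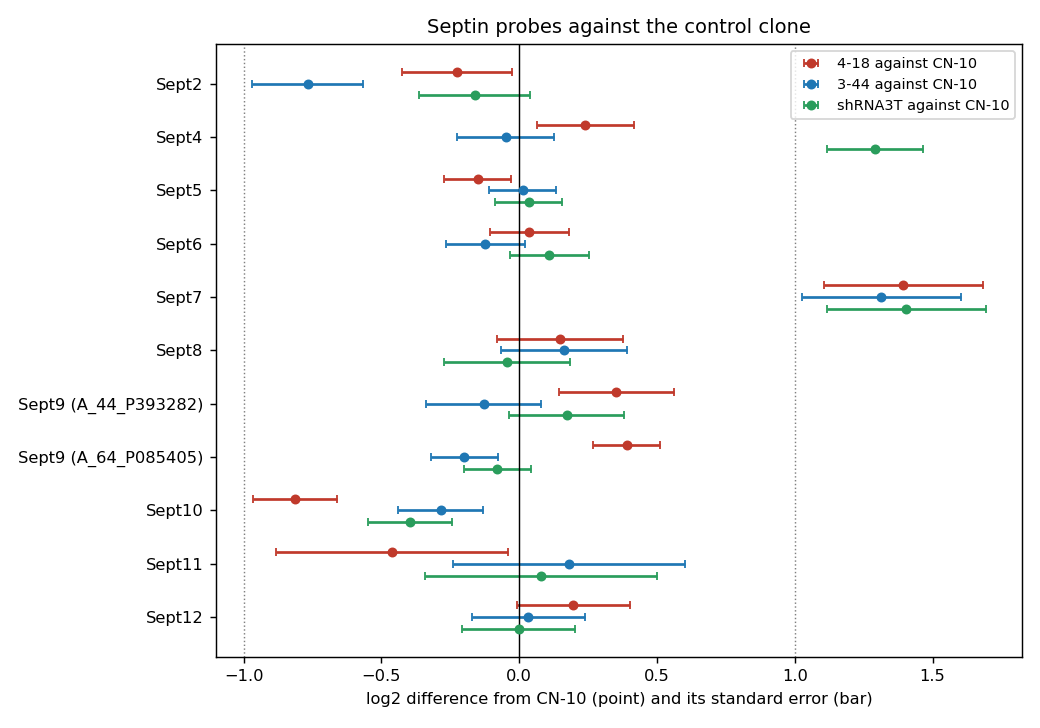
Log2 difference from CN-10 of the 11 septin probes in 4-18, 3-44 and shRNA3T, with the standard error as bars and dotted lines at a 2-fold change. Sept7 lies near 1.4 in all 3 comparisons, Sept4 reaches 1.29 in shRNA3T only, and the other probes lie within 1 unit of 0.

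The SEPT2 subgroup is represented by Sept2, Sept4 and Sept5. Sept4 encodes a septin known from the sperm tail and, in liver, from stellate cells. Its probe read 13.50, 13.03, 13.87 and 13.67 in CN-10, and 14.94, 14.57, 14.81 and 14.92 in shRNA3T. The 4-18 arrays read 13.97, 13.54, 13.53 and 14.00, and the 3-44 arrays 13.75, 13.41, 13.49 and 13.21. The pool thus lay above all 12 arrays of the clones, which overlapped each other.

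Sept4 rose in shRNA3T by 1.29 (SE 0.17, 95% interval 0.92 to 1.66, 2.45-fold, limma adjusted p = 0.000154, exact permutation p = 0.0286, higher on 4 of 4 arrays). In 4-18 the difference was 0.24 (SE 0.17, limma adjusted p = 0.378), and in 3-44 it was -0.05 (SE 0.17, limma adjusted p = 0.926). The value in 4-18 was 0.55 and was called with the processed signal (limma adjusted p = 0.0169), and was -0.50 without scaling (limma adjusted p = 0.263). The difference between silenced groups was itself tested. Sept4 was lower in 3-44, which carries the same shRNA3 plasmid, than in shRNA3T by -1.34 (95% interval -1.71 to -0.97, limma adjusted p = 0.000147), and in 4-18 by -1.05 (-1.42 to -0.68, limma adjusted p = 0.000496). The summed log2 level of 4 stellate and fibroblast markers was 9.62 to 9.83 in CN-10 and 9.52 to 9.72 in shRNA3T, but its members did not move together. Col1a1 was 8.01 ± 0.27 in CN-10 and 8.53 ± 0.17 in shRNA3T, Des 8.27 ± 0.12 and 7.28 ± 0.14, and Acta2 7.60 ± 0.22 and 7.43 ± 0.27 (SD, n = 4), while Pdgfrb was well above background on no array of either group. The part of such cells in the Sept4 values was not tested. Sept4 was called in shRNA3T against CN-10 in all 28 alternative analyses, with values from 1.09 to 1.41.

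Sept2 encodes the core subunit after which the subgroup is named. Its probe read 15.48, 15.23, 15.34 and 15.49 in CN-10, and 14.11, 14.90, 14.83 and 14.64 in 3-44, so that these groups did not overlap. The 4-18 arrays read 15.18, 14.52, 15.49 and 15.46 and the shRNA3T arrays 15.40, 15.30, 15.14 and 15.05, both overlapping CN-10. Sept2 fell in 3-44, with a log2 difference of -0.77 (SE 0.20, 95% interval -1.20 to -0.34, limma adjusted p = 0.0281, exact permutation p = 0.0286, lower on 4 of 4 arrays). The differences in 4-18 and shRNA3T were -0.23 and -0.16 (SE 0.20, limma adjusted p = 0.484 and 0.745). In 4-18 the difference was larger and was called without scaling (-0.91, limma adjusted p = 0.0384) and in the deposited table (-0.92, limma adjusted p = 0.0386). Between 3-44 and shRNA3T the difference was -0.61 (limma adjusted p = 0.0695), and between 4-18 and 3-44 it was 0.54 (limma adjusted p = 0.0667), or -0.11 without scaling. Both were called in some alternatives, among them those limited to probes well above background (limma adjusted p = 0.0476 and 0.0461) and with array weights (limma adjusted p = 0.0207 and 0.0334), and without the second 4-18 array (-0.61 and 0.76, limma adjusted p = 0.0178 and 0.00406), so whether silenced groups differed depended on the processing. The call in 3-44 was lost in 9 of 28 alternative analyses, among them those without CN-10 replicate 1, 3 or 4 or without 3-44 replicate 1 or 4, although the difference stayed between -0.86 and -0.57.

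Sept5, a septin best known from neurons and platelets, read 7.29 to 7.42 in CN-10, 7.28 to 7.44 in 3-44 and 7.32 to 7.45 in shRNA3T. In 4-18 the arrays read 7.28, 6.71, 7.36 and 7.45, and the second was not well above background. The differences from CN-10 were -0.15, 0.01 and 0.03 in 4-18, 3-44 and shRNA3T (SE 0.12, limma adjusted p = 0.433, 0.974 and 0.939). The 95% intervals, -0.41 to 0.11, -0.25 to 0.27 and -0.23 to 0.29, leave out a 2-fold change in either direction on this scale. The probe was dim, and the offset makes such differences smaller. In 4-18 the value ran from -0.52 with the processed signal, where it was called (limma adjusted p = 0.0438), to 0.56 with the 75th percentile of the normexp intensities.

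The SEPT6 subgroup is represented by Sept6, Sept8, Sept10 and Sept11. Sept10 was the one of these that passed the test. Its probe read 6.77, 7.21, 6.68 and 7.31 in CN-10, and 6.15, 6.28, 6.08 and 6.21 in 4-18, where no array was well above background. The 3-44 arrays read 6.30, 6.88, 6.94 and 6.70 and the shRNA3T arrays 6.45, 6.75, 6.62 and 6.56, with the first array of each not well above background. All 4-18 arrays were below every array of the other groups, while 3-44 and shRNA3T overlapped CN-10.

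Sept10 fell in 4-18 by 0.81 on the log2 scale (SE 0.15, limma adjusted p = 0.00112, exact permutation p = 0.0286), a direction that turned to 0.34 (limma adjusted p = 0.506) when the normexp intensities were scaled by their 75th percentile. The call was also lost without scaling (-0.37, limma adjusted p = 0.548) and in the deposited table (-0.35, limma adjusted p = 0.566), while the processed signal gave -2.70. With an offset of 16 instead of 50, the difference relative to the median of all probes was -1.35, against -0.82. Because 4-18 had no measured level, the difference is given as an approximate bound, 1.43-fold lower than in CN-10. The bound sets the CN-10 mean against the higher, on each 4-18 array, of the probe's own signal and the weakest signal well above background. These weakest signals were 6.48, 6.81, 6.42 and 5.87 on the 4-18 arrays, and the second lay above the CN-10 readings of 6.77 and 6.68. On the fourth array the probe read 6.21, above the weakest signal there, and was still not well above background. The bounds for Sept10 are therefore approximate, and they hold for the reported scaling and offset only. In 3-44 and shRNA3T the differences from CN-10 were -0.29 and -0.40 (SE 0.15, limma adjusted p = 0.340 and 0.120). The latter was called with the processed signal (-1.76, limma adjusted p = 0.0469) and with array weights (-0.39, limma adjusted p = 0.0218). Sept10 was also lower in 4-18 than in 3-44 (log2 difference -0.53, limma adjusted p = 0.0217, 3 of 4 arrays of 3-44 well above background). The approximate bound was 1.17-fold. This direction turned to 0.60, 0.01 and 0.03 under the 75th percentile, without scaling and in the deposited table. That call was also lost with cyclic loess (-0.40) and without 4-18 replicate 3 or 3-44 replicate 2 or 3 (-0.49, -0.47 and -0.45). Against shRNA3T the log2 difference in 4-18 was -0.42 (limma adjusted p = 0.0716, approximate bound 1.08-fold lower). It turned to 0.95, 0.22 and 0.24 under the 75th percentile, without scaling and in the deposited table. It was called in 5 of the 28 alternatives, 1 of them without 3-44 replicate 1 (-0.42). The 4-18 arrays were also the dimmest, and the part of this in the Sept10 values was not tested.

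Sept11 encodes a partner of SEPT7 in common filaments, and its probe was the least steady of the family. It read 10.10, 10.79, 8.85 and 10.77 in CN-10, 10.02, 10.29, 9.33 and 9.02 in 4-18, 9.45, 10.50, 10.64 and 10.65 in 3-44, and 9.54, 10.49, 10.42 and 10.38 in shRNA3T. Every group spanned nearly 1 unit or more, and all groups overlapped. Its differences from CN-10 were -0.46, 0.18 and 0.08 (SE 0.42, limma adjusted p = 0.497, 0.879 and 0.961). The 95% intervals were -1.36 to 0.44 in 4-18, -0.72 to 1.08 in 3-44 and -0.82 to 0.98 in shRNA3T, so that a 2-fold change was left out in shRNA3T but not in the clones. The pooled SD between replicates was 0.65 for Sept11 and 0.44 for Sept7, against a median of 0.26 over the 12631 single-spot probes measured above background on every array.

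Sept8 read 10.98 to 11.82 in CN-10, 11.21 to 11.95 in 4-18, 11.04 to 11.92 in 3-44 and 10.77 to 11.51 in shRNA3T, and all groups overlapped. Its differences were 0.15, 0.16 and -0.04 (SE 0.23, limma adjusted p = 0.714, 0.779 and 0.960), with 95% intervals of -0.34 to 0.63, -0.33 to 0.65 and -0.53 to 0.44. Sept6, whose product is the usual partner of SEPT2 and SEPT7, was well above background on 1 array, the first of shRNA3T (6.91), and read 6.06 to 6.47 on the other arrays. No fold is given for it, although scaling by the 75th percentile of the normexp intensities called it higher in 4-18 than in CN-10 (limma adjusted p = 0.0316).

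The SEPT3 subgroup is represented by Sept9 and Sept12. SEPT9 binds microtubules and actin and is part of the longer septin oligomers. The Sept9 probe A_64_P085405 read 9.54, 9.60, 9.60 and 9.62 in CN-10, and 10.20, 9.97, 9.91 and 9.84 in 4-18. The 3-44 arrays read 9.65, 9.25, 9.37 and 9.30, and the shRNA3T arrays 9.90, 9.44, 9.35 and 9.35. The 4-18 arrays were above CN-10 and 3-44, and overlapped shRNA3T through its first array.

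This probe rose in 4-18 by 0.39 (SE 0.12, 1.31-fold, limma adjusted p = 0.0313, exact permutation p = 0.0286, higher on 4 of 4 arrays), but was -0.20 without scaling and -0.20 in the deposited table. With the processed signal it was 0.69. The call was also lost with cyclic loess (limma adjusted p = 0.0548) and when any 1 CN-10 array, or the first or second 4-18 array, was left out. Its differences were -0.20 in 3-44 and -0.08 in shRNA3T (SE 0.12, limma adjusted p = 0.425 and 0.816). Both were called without the first replicates (-0.30 and -0.23, limma adjusted p = 0.0118 and 0.0366), and that in 3-44 also with array weights (-0.26, limma adjusted p = 0.0391). It was higher in 4-18 than in 3-44 by 0.59 (limma adjusted p = 0.00268), which was 0.11 without scaling and 0.11 in the deposited table (limma adjusted p = 0.703 and 0.707), and than in shRNA3T by 0.47 (limma adjusted p = 0.0129), the latter turning to -0.17 without scaling and -0.15 in the deposited table and missing the threshold with only these groups in the fit (limma adjusted p = 0.0566).

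The other Sept9 probe, A_44_P393282, read 12.60, 12.33, 12.51 and 11.95 in CN-10, and 12.42, 12.19, 13.11 and 13.07 in 4-18, so that these groups overlapped. It read 12.00 to 12.51 in 3-44 and 12.36 to 12.87 in shRNA3T. Its differences from CN-10 were 0.35, -0.13 and 0.17 in 4-18, 3-44 and shRNA3T (SE 0.21, limma adjusted p = 0.264, 0.815 and 0.736). In 4-18 this probe was called with the processed signal (0.68, limma adjusted p = 0.00344), and was -0.39 without scaling and -0.36 in the deposited table, so that its sign turned there, as did that of A_64_P085405. The differences of the 2 probes in 4-18 were alike in size, and their 95% intervals (0.13 to 0.65 for A_64_P085405 and -0.09 to 0.80 for A_44_P393282) overlapped. Sept12, a septin of the testis, was well above background on no array, and no fold is given for it, although the 75th percentile of the normexp intensities called it higher in 4-18 than in CN-10 (limma adjusted p = 0.0182).

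**Figure D3:**
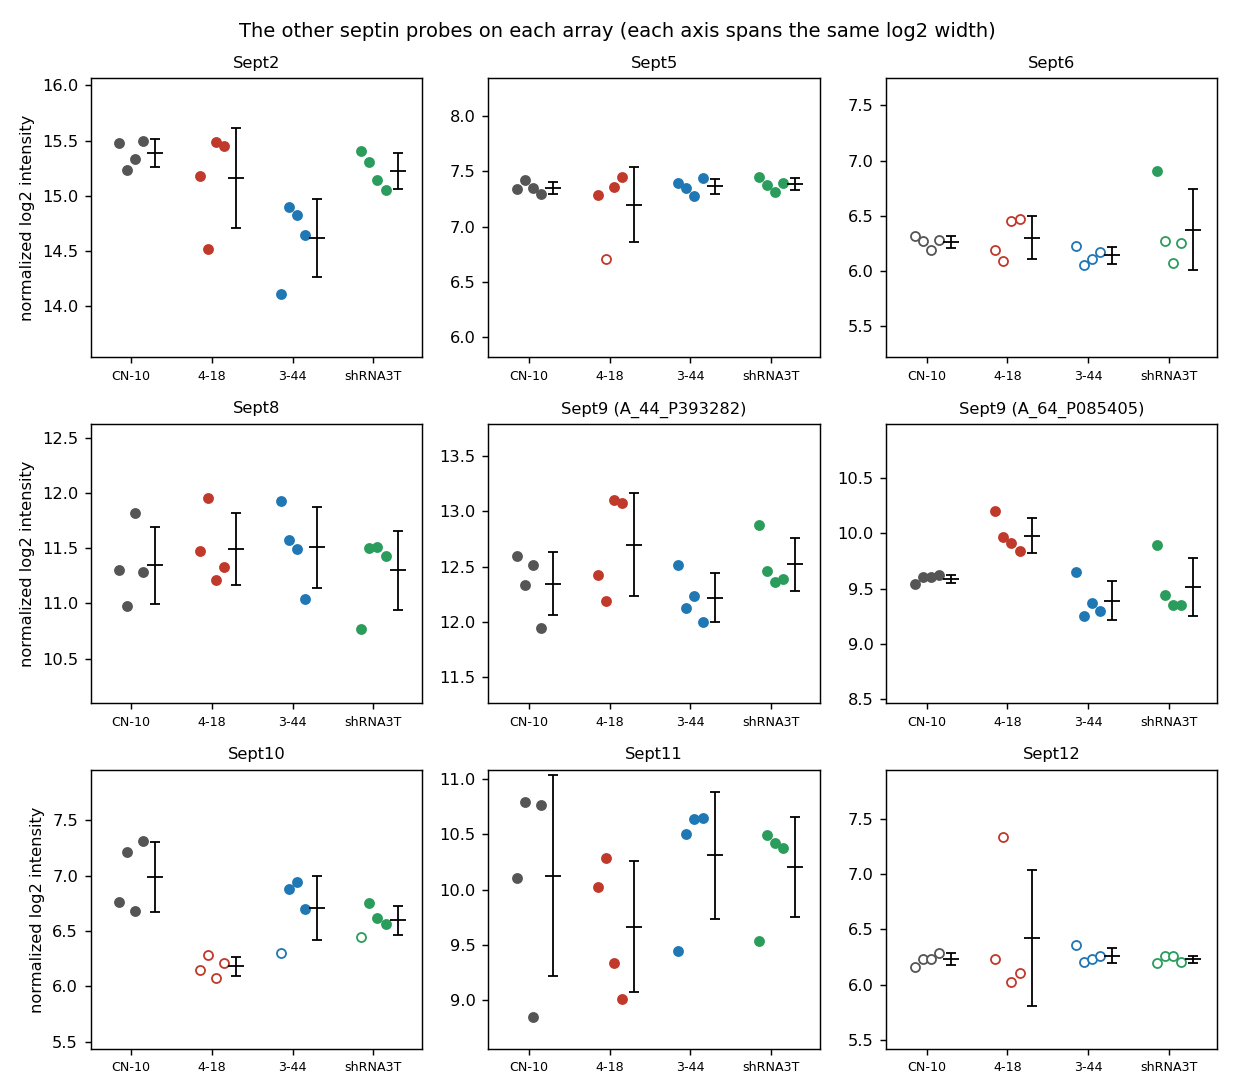
Normalized log2 intensity of the other 9 septin probes on each array, by group, with replicates 1 to 4 from left to right. Filled circles are arrays on which the probe was well above background, open circles those on which it was not, and the bar is the mean with its SD. The 4-18 arrays are all open for Sept10 (6.08 to 6.28), and Sept11 spreads within every group.

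Levels of the septins across arrays showed little likeness to Sept7. Over the 15 arrays with a Sept7 value, Pearson's r with Sept7 ranged from -0.35 for Sept10 to 0.32 for Sept4. Among 12701 probes well above background on all arrays, the most like Sept7 were an unnamed probe, A_64_P086598 (r = 0.964), Insig1 (0.928), Clk1 (0.918), Cttnbp2nl (0.912) and G6pc (0.911). Insig1 encodes a regulator of sterol synthesis, Clk1 a kinase of splicing factors, and G6pc the last enzyme of glucose release from liver. G6pc had means of 8.86 ± 0.38 in CN-10, 10.97 ± 0.27 in 4-18, 10.87 ± 0.63 in 3-44 and 11.52 ± 0.15 in the pool (SD, n = 4). These correlations describe arrays that share 4 groups, and no test is attached.

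The nearest probes to Sept7 on chromosome 8, each identifier counted once, were Herpud2 and A_64_P132156 below it and Eepd1 and A_64_P146032 above it, at 209.6, 481.1, 298.9 and 1346 kb. Herpud2, a relative of an endoplasmic reticulum stress gene, rose in shRNA3T by 0.46 (SE 0.12, limma adjusted p = 0.0224, exact permutation p = 0.0286), with 0.18 in 4-18 and -0.12 in 3-44 (limma adjusted p = 0.345 and 0.663). Eepd1 differed from CN-10 by -0.53, 0.21 and -0.00 (SE 0.20, limma adjusted p = 0.0675, 0.642 and 0.999). The neighbours without a gene symbol did not pass, and A_64_P132156 was well above background on at most 1 array of a group.

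Proteins that bind septins or act beside them in cytokinesis were described as a list of 28 genes, of which 26 were on the array under these names (not Anln and Ect2). In 4-18, 1 rose, 12 fell and 13 did not pass, with a median log2 difference of -0.47. In 3-44, 2 rose, 1 fell and 23 did not pass, with a median of 0.02. In shRNA3T, 0 rose, 9 fell and 17 did not pass, with a median of -0.30. The share of all probes that fell was 12% in 4-18, 4.37% in 3-44 and 6.85% in shRNA3T, and the medians of all probes are those given above. Over the 28 alternative analyses, 12 to 15 partner genes were called in 4-18, 1 to 5 in 3-44 and 3 to 13 in shRNA3T. The shares of all probes called ranged from 15.2% to 58.9%, from 0.688% to 17.3% and from 1.46% to 25.4%. Less RNA per cell and fewer cells in a given phase of division cannot be told apart in such bulk samples.

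Borg proteins, encoded by Cdc42ep1 to Cdc42ep5, bind septins and are effectors of the GTPase Cdc42. Cdc42ep5 fell in every silenced group. Its probe read 15.07, 14.92, 14.95 and 14.91 in CN-10, 13.47, 13.35, 13.40 and 13.10 in 4-18, 14.28, 13.83, 13.91 and 13.80 in 3-44, and 13.76, 13.36, 13.33 and 13.39 in shRNA3T. All silenced arrays were below CN-10. The differences were -1.63, -1.01 and -1.50 (SE 0.12, limma adjusted p = 1.95e-07, 9.99e-05 and 1.57e-06), and it was called in all 28 alternative analyses of each comparison.

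Cdc42ep4 changed the other way in both clones. It read 9.88 to 10.00 in CN-10, 10.69 to 11.20 in 4-18, 10.27 to 10.74 in 3-44 and 10.08 to 10.24 in shRNA3T. It rose by 1.02 in 4-18 and 0.55 in 3-44 (SE 0.12, limma adjusted p = 1.37e-05 and 0.00907), and was 0.19 in shRNA3T (limma adjusted p = 0.399). It was called in 26 of 28 alternative analyses in 4-18 and in 25 of 28 in 3-44. Without scaling and in the deposited table both calls were lost, at 0.37 and 0.36 in 4-18 and 0.46 and 0.45 in 3-44, and that in 3-44 was also lost with the 75th percentile of the normexp intensities (0.57). A second Cdc42ep4 probe rose by 0.57 in 4-18 (limma adjusted p = 0.00264) and was 0.08 in 3-44 (limma adjusted p = 0.780), so the probes did not give the same call in 3-44. Cdc42ep1 and Cdc42ep2 passed in no comparison with CN-10 (-0.06 to 0.31), and Cdc42ep3 was well above background on no array. Among the alternatives, Cdc42ep2 was called in 4-18 with normexp and the 75th percentile (1.11). In shRNA3T Cdc42ep2 was called with array weights (0.33, limma adjusted p = 0.0148) and with only the 2 groups in the fit (0.31, limma adjusted p = 0.0204).

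Cdc42 itself differed by -0.27, -0.11 and -0.25 on the brighter of its probes (SE 0.18, limma adjusted p = 0.335, 0.818 and 0.503). It was called in 4-18 without scaling (-0.84) and in the deposited table (-0.83), and in shRNA3T with array weights (-0.35, limma adjusted p = 0.0278). Its second probe rose by 0.76 in 4-18 (limma adjusted p = 0.00313) and was -0.06 and -0.17 in 3-44 and shRNA3T, so the 2 probes disagreed in 4-18.

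Of the genes of the division machinery, Kif23, Plk1, Cep55 and Orc6 changed at least 2-fold in a silenced group. Kif23 encodes the kinesin of the central spindle, and it read 12.85 to 12.91 in CN-10, 11.07 to 11.91 in 4-18, 12.63 to 13.06 in 3-44 and 11.18 to 11.94 in shRNA3T. It fell by 1.30 in 4-18 and 1.32 in shRNA3T (SE 0.18, limma adjusted p = 7.06e-05 and 0.000147) and was -0.09 in 3-44 (limma adjusted p = 0.856). Plk1, a mitotic kinase, fell by 0.53 in 4-18 and 1.32 in shRNA3T (SE 0.14, limma adjusted p = 0.0109 and 1.67e-05) and was -0.14 in 3-44 (limma adjusted p = 0.671).

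Cep55, a midbody protein of abscission, fell by 0.72 in 4-18 and 1.10 in shRNA3T (SE 0.16, limma adjusted p = 0.00322 and 0.000221) and was 0.11 in 3-44 (limma adjusted p = 0.790). Orc6, an origin recognition subunit that also binds septins, fell by 1.07 in 4-18 (SE 0.29, limma adjusted p = 0.0140), and was -0.02 in 3-44 and -0.73 in shRNA3T (limma adjusted p = 0.984 and 0.133). The Orc6 call in 4-18 was lost with the 75th percentile of the normexp intensities (-0.64), and in shRNA3T Orc6 was called in 3 of 28 alternatives, reaching -1.20 with the processed signal. The Cep55 call in shRNA3T was lost without scaling and in the deposited table (-1.10 and -1.11). Their levels in 3-44 overlapped CN-10 in each of these 4 genes.

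**Figure D4:**
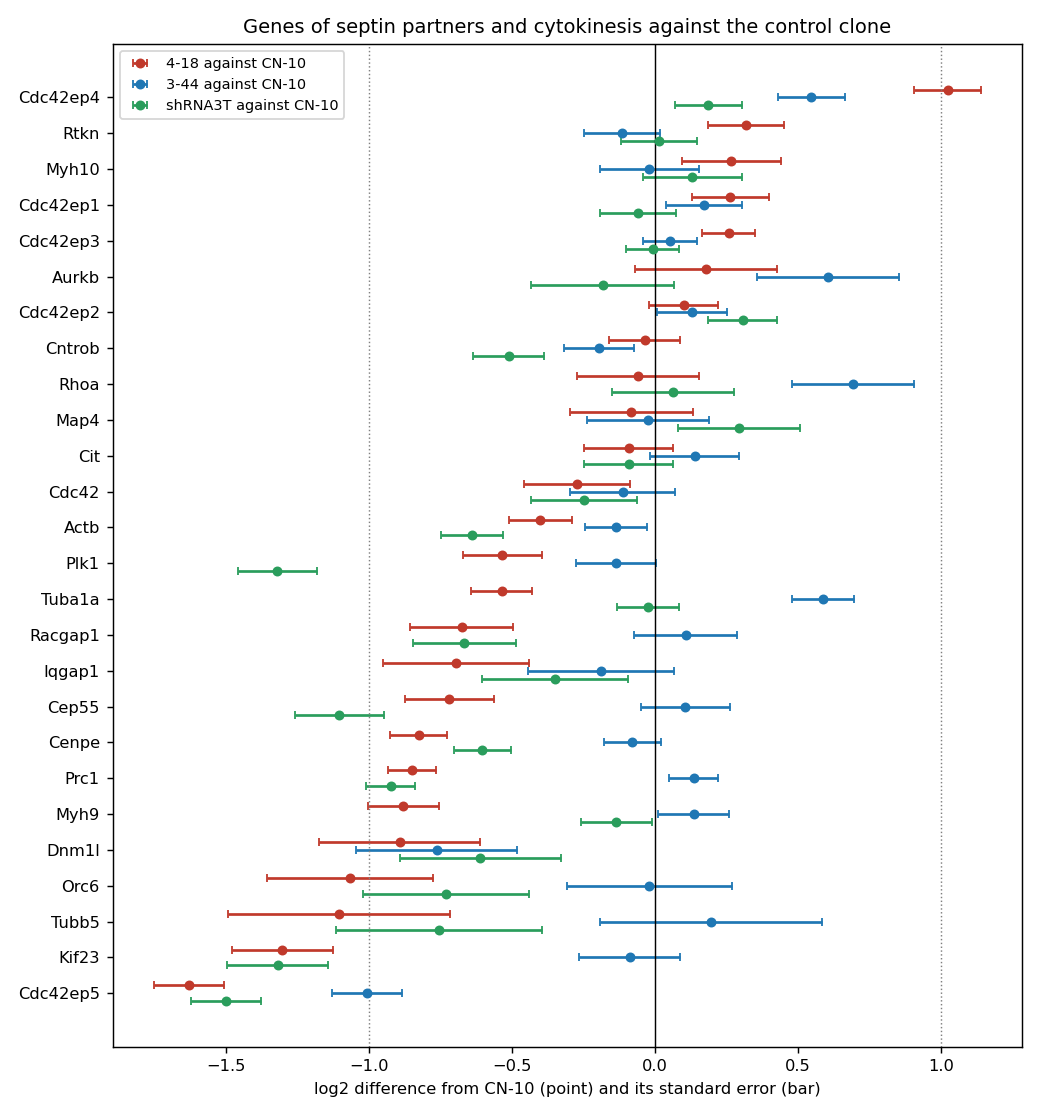
Log2 difference from CN-10 of 26 genes of septin partners and cytokinesis, with the standard error as bars and dotted lines at a 2-fold change. Cdc42ep5 lies at -1.01 or lower in all 3 comparisons, and Kif23 lies at -1.30 and -1.32 in 4-18 and shRNA3T.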

How the data were processed

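The authors hybridized 16 one-colour Agilent arrays and quantified them (Feature Extraction 10.7.3.1). Per array, they deposited the intensity of each spot as a mean, its local background and a processed signal, with flags. The authors also deposited a table of score values without decimal points. With these restored, they equalled log2 normexp-corrected median intensities within 3.99e-11, so the authors had not scaled that table. The submitters' notes name limma.

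From the intensities, background was corrected with normexp (offset 50, R 4.3.3, limma 3.58.1). Control spots were left out, arrays were quantile normalized, flagged outlier spots were set aside and spots averaged per probe. limma fitted a mean for each group over all 16 arrays, and adjusted p-values (Benjamini-Hochberg, over all probes) under 0.05 were called. Single values were also tested by exact permutation. The steps were tested on simulated data.

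Members and lists were chosen with earlier results of these data known. Text names every member, the Borg genes and Cdc42, partner genes called at 2-fold or more, the 5 probes most like Sept7 (over 15 arrays, 1 spot being flagged), its neighbours and Pdrg1. A partner with several probes is given by the brightest. Alternatives were other background corrections, scalings, filters, weights, a replicate block and leaving out arrays. The number of arrays limits the precision.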

Additional observations from a re-analysis of the deposited data

Results flagged for a closer look

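Of 43 sets of 4 arrays, 1 septin probe in 1 group each, 5 held an array far from the other 3 by Dixon's criterion, where chance alone marks about 1 in 20. In shRNA3T the first replicate stood apart for Sept8 (10.77, nearest array 11.43), for Sept9 probe A_64_P085405 (9.90, nearest 9.44) and for Sept11 (9.54, nearest 10.38). In 3-44 the first replicate stood apart for Sept11 (9.45, nearest 10.50). In 4-18 the second replicate stood apart for Sept12 (7.34, nearest 6.24), at a level not well above background.

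Some differences from CN-10 were not the same in the silenced groups by limma's test of the difference itself, which is the comparison of the 2 silenced groups. Sept4 differed by -1.05 between 4-18 and shRNA3T and by -1.34 between 3-44 and shRNA3T. Sept9 probe A_64_P085405 differed by 0.59 between 4-18 and 3-44 and by 0.47 between 4-18 and shRNA3T. The Sept9 differences were 0.11 and -0.17 without scaling. For Sept10 the fitted difference between 4-18 and 3-44 was -0.53, but the probe was well above background on no 4-18 array. The measured difference is an approximate bound of 1.17-fold under the reported scaling and offset. Its sign turned under the 75th percentile (0.60), without scaling (0.0059) and in the deposited table (0.027).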

How the results depend on the processing

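The number of septin probes called, Sept7 aside, moved with the processing. In 4-18 against CN-10 it was 5 with the processed signal scaled to its 75th percentile, 1 with cyclic loess, without scaling and in the deposited table, and 0 at 2-fold or more, against 2. Of all probes, 27.3% were called with the processed signal, 22.1% with cyclic loess, and 15.2% without scaling and in the deposited table, against 23.6%. In 3-44 against CN-10 the septin count was 0 with normexp and the 75th percentile, without scaling, in the deposited table and at 2-fold, and 2 with array weights, against 1. Of all probes, 1.73% were called with normexp and the 75th percentile, 0.721% without scaling, 0.688% in the deposited table and 17.3% with array weights, against 7.85%. In shRNA3T against CN-10 it was 2 with the processed signal, with array weights and without the first replicates, against 1. In 4-18 against 3-44 the septin count was 4 with the processed signal and with array weights, 1 with cyclic loess, and 0 without scaling and in the deposited table, against 2. In 4-18 against shRNA3T it was 4 with normexp and the 75th percentile and 1 without scaling and in the deposited table, against 2. In 3-44 against shRNA3T it was 2 among probes well above background and with array weights, against 1. Partner genes called were 1 without scaling and in the deposited table and 5 with array weights in 3-44, against 3, and 5 with the 75th percentile and 3 without scaling and in the deposited table in shRNA3T, against 9.

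With 1 array left out, the septin counts ranged from 1 to 2 in 4-18 and from 0 to 1 in 3-44 against CN-10, from 1 to 4 in 4-18 against 3-44, and from 1 to 2 in 3-44 against shRNA3T. The share of all probes called against CN-10 then ranged from 19.6% to 25.1% in 4-18 and from 5.16% to 8.88% in 3-44. The count in 4-18 against 3-44 was 4 without the second 4-18 array and 1 without 4-18 replicate 3 or 3-44 replicate 2 or 3. The count in 3-44 against shRNA3T was 2 without the second 4-18 array.

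Of the 60 differences of septin probes other than Sept7, the sign turned in at least 1 alternative for 39, and 34 of these were called neither in the reported analysis nor where the sign turned. The other 5 follow. Sept9 probe A_64_P085405 in 4-18 was -0.20 against CN-10 without scaling and -0.20 in the deposited table, and -0.17 and -0.15 against shRNA3T. Sept10 in 4-18 was 0.34 against CN-10 with the 75th percentile, and 0.60, 0.0059 and 0.027 against 3-44 with the 75th percentile, without scaling and in the deposited table. Sept6 in 4-18 against shRNA3T was 1.23 with the 75th percentile, both groups being near background. The cause was not tested. With that scale 89.9% of the probes called in 4-18 were higher, against 49.2%, with 7.24% without scaling and 7.36% in the deposited table. In 3-44 that share was 31.5% and 30.6% in the same 2 settings and 32.3% without the first replicates, against 44.4%. The processed signal moved the median of all probes to 0.20 in 4-18 and -0.23 in shRNA3T.

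Replicate numbers were the same in each group, and the labels do not say that they mark a shared batch. The correlation of deviations had a median of 0.11 over 24 same-numbered pairs and -0.03 over the 72 other pairs, and 9 of 16 arrays were closest to their own number. It ran from 0.18 to 0.44 between the first replicates, but from -0.02 to 0.13, -0.06 to 0.18 and -0.11 to 0.21 for the numbers 2, 3 and 4, so the block was kept as an alternative. With the replicate block, 2, 1 and 1 septin probes were called in 4-18, 3-44 and shRNA3T against CN-10, and 15, 3 and 9 partner genes. The shares of all probes called were then 26%, 9.7% and 13.8%. Sept10 in 4-18 against shRNA3T was then called (-0.42), although it was 0.95 with normexp and the 75th percentile, and no other septin call changed.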
